A study of Mus musculus with 6 samples.

Results

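Fragments of the methionine tRNAs of mouse pulmonary artery smooth muscle cells were followed through 3 hypoxia and 3 normoxia small RNA libraries. The tRNAs are the initiator, mature-tRNA-iMet-CAT, and the elongator, mature-tRNA-Met-CAT. A tRNA-derived small RNA (tsRNA) was a member when every nuclear tRNA that the deposited table assigns to its sequence is one of these. The rule took 1621 of the 38798 distinct sequences, 624 from the initiator and 997 from the elongator, and 0 were assigned to both. All cells were primary and wild type. Smooth muscle cells of this artery contract its wall and set its resistance to blood flow. The hypoxia cells were kept at 3% oxygen for 24 hours, and the normoxia cells in standard culture. Total RNA was treated with enzymes before library construction (Pandora-seq), so that modified RNA that ordinary protocols miss can be ligated and copied. The libraries are numbered 1 to 3 in each group, and the study's question was which tsRNAs respond to low oxygen. A table of tRNA sequences holds no cell type markers, so the identity of the cells could not be checked here.

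Methionine is the only amino acid with a tRNA of its own for starting a protein. The initiator tRNA is delivered to the small ribosomal subunit by the factor eIF2 and pairs with the start codon, while the elongator tRNA is delivered by eEF1A and reads methionine codons inside the message. Cleavage of mature tRNAs in the D loop, the anticodon loop or the T loop gives 5' fragments, internal fragments and fragments that carry the CCA tail, which is added after transcription and holds the amino acid. Base A58 of the T loop is methylated in many cytosolic tRNAs, the initiator among them.

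The full tRNAs were put together from overlapping deposited fragments, and all positions given here refer to them. The initiator is shown 5' to 3' with its CCA tail, with the anticodon and A58 in capitals.
Initiator tRNA-Met: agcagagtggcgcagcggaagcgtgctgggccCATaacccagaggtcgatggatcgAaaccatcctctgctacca
With its tail the initiator is 75 nt long, its anticodon lies at positions 33 to 35 and A58 of the standard numbering is its position 57. The elongator is 76 nt long with its tail, its anticodon lies at positions 34 to 36 and A58 is its position 58. All 624 initiator sequences could be placed on the assembled initiator, and sequences identical to it held 99.98% of the initiator counts. Sequences identical to the assembled elongator held only 52.4% of the elongator counts, and other sequence forms made the rest. Allowing mismatches, 977 of the 997 elongator sequences were placed, with 99.72% of the counts. RefSeq (GRCm38) lists 16 nuclear genes for tRNA-Met with this anticodon, 9 of 72 nt and 7 of 73 nt, which are the lengths of the assembled initiator and elongator without their tails. Of these genes 11 lie on chromosome 13 between positions 21167604 and 23530419, and their symbols do not tell initiator from elongator. Gene copies share sequence, so no fragment was assigned to a single gene.

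In 4 of the 6 libraries 5' fragments were the most abundant class of both tRNAs, and most of them end in the D loop. The main initiator one is shown because it was the most abundant initiator fragment in these libraries. Elongator 5' fragments came in 3 forms that differ at positions 5 and 6 and are called CC, CG and TC after these bases.
Initiator 5' fragment of 18 nt: agcagagtggcgcagcgg
The initiator fragment of 18 nt held 24%, 64.5% and 66.1% of the initiator counts in hypoxia and 19.9%, 66.7% and 64.2% in normoxia. The CC form of the elongator fragment of 19 nt held 8.34%, 36.6% and 33.1% of the elongator counts in hypoxia and 8.79%, 29.8% and 28.5% in normoxia. Both shares were low in the libraries numbered 1.

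The libraries differed in depth and in make-up. Hypoxia libraries held 510519, 2563749 and 1713960 counts, and normoxia libraries 330787, 2217965 and 1629726. Both libraries numbered 1 were the shallowest and stood apart from the rest: mitochondrial tRNAs took 15.3% of the counts in hypoxia library 1 and 14.4% in normoxia library 1, against 6% to 7.33% in the other libraries. In the same libraries 5' fragments took 38.9% and 35.8% of the nuclear tRNA counts, against 54.7% to 60.2% in the others. Initiator fragments numbered 6083 counts in hypoxia library 1 and 5422 in normoxia library 1, and 21401 to 32870 in the other libraries. Elongator counts were 3491 to 8679 per library.

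Initiator fragments were somewhat less abundant in hypoxia, by an amount that passed no test. Their summed level was 11915, 12821 and 12486 CPM (counts scaled to a library total of 1e+06 tRNA-derived counts) in hypoxia libraries 1 to 3, against 16391, 13478 and 13716 CPM in normoxia libraries 1 to 3. Every hypoxia library was below every normoxia library, and normoxia library 1 stood above the others. The means were 12408 ± 458.0 CPM in hypoxia and 14528 ± 1618 CPM in normoxia (SD, n = 3 each; two-sided exact permutation p = 0.1, the smallest that 3 against 3 allows, and 0.2 adjusted over both tRNAs). The level of a pair of same-numbered libraries stood at 0.727, 0.951 and 0.91 of normoxia in hypoxia. Pairing by number is an assumption here and below. Groups overlapped once CPM was scaled by trimmed means (two-sided exact permutation p = 0.5). Among the 112 tRNA sets fitted together, 4.46% were lower without overlap and 23.2% were lower in all 3 pairs. The edgeR fit over these sets gave the initiator a log2 fold change of -0.14 (SE 0.37, adjusted p = 0.997), and it called 0% of sets, with 1 set lower and 0 higher at an unadjusted p under 0.05. DESeq2 and limma voom called 0 sets. The difference of mean levels was -2121 CPM with all libraries, -1189 CPM without normoxia library 1 and -943.3 CPM without both libraries numbered 1. The edgeR log2 fold change was -0.01 with DESeq2 size factors and turned to 0.10 without hypoxia library 1. Levels are relative to all tRNA fragments of a library and give no amount per cell. In bulk RNA, fewer cells of a type and less RNA per cell cannot be told apart.

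Elongator fragments did not pass a test either, and their level stood apart in the libraries numbered 1. It was 10268, 3385 and 3376 CPM in hypoxia libraries 1 to 3, against 10554, 3843 and 3855 CPM in normoxia libraries 1 to 3. Both libraries numbered 1 were high, the groups overlapped, and hypoxia was lower within every pair (0.973, 0.881 and 0.876 of normoxia). With trimmed-mean scaling pair 1 ran higher in hypoxia, at 7401 scaled CPM against 6206 scaled CPM in normoxia. Means were 5676 ± 3976 CPM in hypoxia and 6084 ± 3871 CPM in normoxia (SD, n = 3 each; two-sided exact permutation p = 0.5). In the edgeR fit the log2 fold change was -0.01 (SE 0.32, adjusted p = 0.997). The direction of this value was not stable: it was 0.07 with DESeq2 size factors. Among the 120 sets of nuclear tRNAs the initiator ranked 24 and 18 by level in hypoxia and normoxia library 1, and 15 in each of the other libraries. The elongator ranked 26 in both libraries numbered 1, and 30 to 33 in the others.

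The initiator exceeded the elongator in every library, but by a very different margin. The log2 ratio of initiator to elongator was 0.215, 1.92 and 1.89 in hypoxia libraries and 0.635, 1.81 and 1.83 in normoxia libraries. The ratio was low in both libraries numbered 1, and it did not separate the groups (two-sided exact permutation p = 1, n = 3 each).

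**Figure D1:**
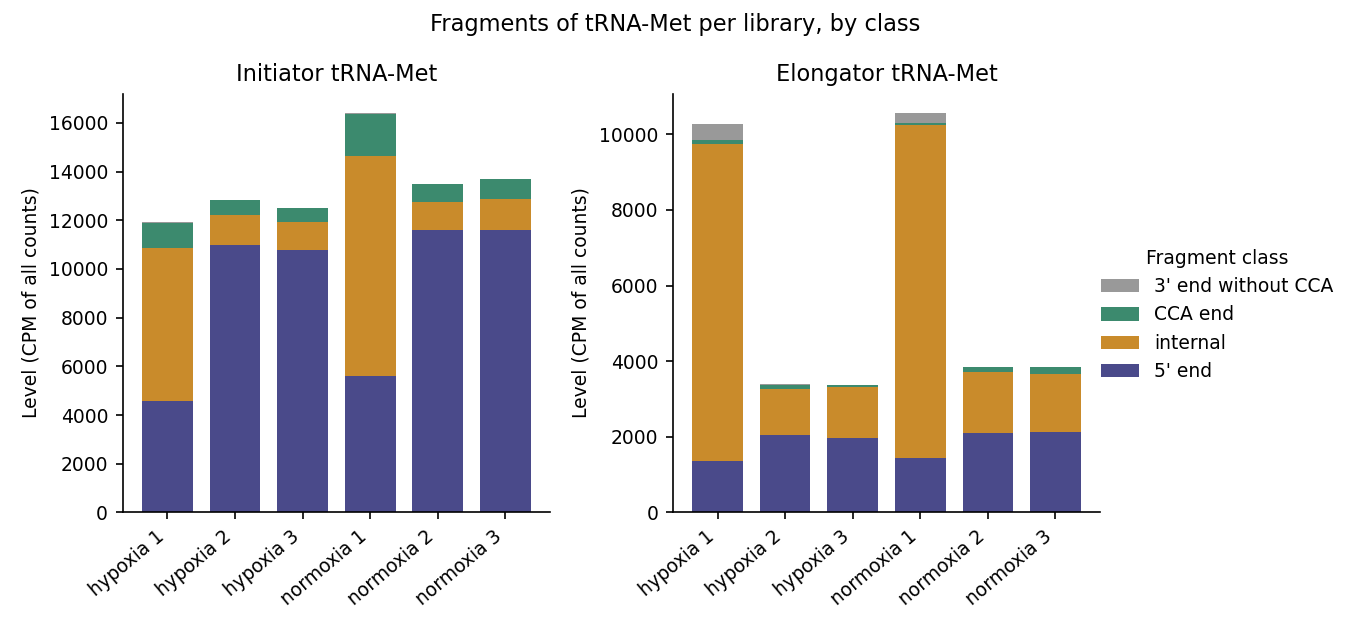
Summed level (CPM of all counts) of initiator (left) and elongator (right) tRNA-Met fragments in the 3 hypoxia and 3 normoxia libraries, with each bar split by fragment class. Libraries 2 and 3 of both groups are mostly 5' fragments for the initiator (84.6% to 86.3%), while both libraries numbered 1 are mostly internal fragments.

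Split by class, the initiator was made of 5' fragments in the deeper libraries. Its 5' fragments stood at 4586, 11005 and 10780 CPM in hypoxia, against 5605, 11609 and 11605 CPM in normoxia. Libraries numbered 1 were low in both groups and the groups overlapped. As a share of initiator counts the 5' class took 70.2 ± 27.5% in hypoxia and 68.3 ± 29.6% in normoxia (SD, n = 3 each; two-sided exact permutation p = 0.6). Internal initiator fragments ran the other way, with 6266, 1202 and 1169 CPM in hypoxia and 9018, 1135 and 1263 CPM in normoxia. They took over 50% of initiator counts only in the libraries numbered 1 (52.6% in hypoxia and 55% in normoxia).

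The initiator fragments that end in the full CCA tail were lower in hypoxia within each of the 3 pairs. Their level was 1026, 613.9 and 537.4 CPM in hypoxia, against 1747, 734.0 and 847.4 CPM in normoxia. Both libraries numbered 1 were the highest of their group, so that the groups overlapped in CPM. With CPM scaled by trimmed means, 1 of the 3 initiator class sums was lower in hypoxia without overlap, against 4.35% of all class sums. Over the 276 sums of a tRNA set and a class, edgeR gave this class a log2 fold change of -0.52 (SE 0.30, unadjusted p = 0.128, adjusted p = 0.999). A fit with the replicate number as a block gave the same log2 fold change of -0.52 with a smaller error (SE 0.18, unadjusted p = 0.025, adjusted p = 0.372). Without both libraries numbered 1 it was -0.44 (SE 0.18, adjusted p = 0.176). In these class sums edgeR called 0% with the group alone and 0% with the block, where 5.07% were lower at an unadjusted p under 0.05. With the group alone, 1 sum was lower and 2 were higher at that p, DESeq2 and limma voom called 0, and 17.4% were lower in all 3 pairs. Without both libraries numbered 1, edgeR called 4.83% of 269 sums, and 0 of the tRNA-Met classes were among them.

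Elongator fragments were split more evenly than initiator fragments in libraries 2 and 3 of both groups. In both libraries numbered 1 they were mostly internal (81.7% in hypoxia and 83.5% in normoxia). The 5' class stood at 1348, 2051 and 1975 CPM in hypoxia, against 1445, 2098 and 2113 CPM in normoxia, lower within all 3 pairs. Groups overlapped through the low libraries numbered 1, and the edgeR log2 fold change was -0.04 (SE 0.63, adjusted p = 0.999). Internal elongator fragments stood at 8390, 1219 and 1333 CPM in hypoxia, against 8809, 1604 and 1557 CPM in normoxia, again lower within all 3 pairs with overlapping groups. The edgeR log2 fold change of the internal class was -0.12 (SE 0.66, adjusted p = 0.999). Elongator fragments with the full tail were scarce. They had 119.5, 103.0 and 60.1 CPM in hypoxia, against 57.4, 137.1 and 175.5 CPM in normoxia, so that pair 1 ran higher and pairs 2 and 3 ran lower (edgeR log2 fold change -0.61, SE 0.77, adjusted p = 0.999). Without both libraries numbered 1 the value was -0.92 (SE 0.37, adjusted p = 0.176). Of the 14 shares of fragment and length classes tested for both tRNAs, none separated the groups, and each had an adjusted p of 1 in the two-sided exact permutation test (n = 3 each).

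Within a library the methionine tRNAs had different fragment profiles, and this held in every library. The 5' share was 26.7 percentage points higher for the initiator than for the elongator (69.3% and 42.6% on average), higher in 6 of 6 libraries. The internal share was 29.8 points lower for the initiator (24% and 53.8%), lower in 6 of 6 libraries. Shares of the CCA class (6.67% and 2.44%) and of fragments of 30 nt and longer (13.2% and 6.18%) were higher for the initiator in 6 of 6 libraries. Each of these 4 differences had a two-sided exact sign-flip p of 0.0312, the smallest that 6 libraries allow, and 0.0455 adjusted over 16 such tests. Same-numbered libraries resemble each other, and counted as 3 pairs the smallest p is 0.25.

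Against the other nuclear tRNAs together, each methionine tRNA differed in its own way. Initiator fragments had a lower internal share than other nuclear tRNAs in 6 of 6 libraries (24% and 43.9%, exact sign-flip p = 0.0312, adjusted p = 0.0455). The gap was small in the libraries numbered 1, with 52.6% and 52.9% in hypoxia and 55% and 57.2% in normoxia, and the internal share of the initiator was 8.42% to 9.38% in the others, against 34.7% to 40.5%. Its 5' share was higher only in libraries 2 and 3 of both groups, by a mean of 19.1 points over all libraries (exact sign-flip p = 0.125). The elongator had lower shares of CCA fragments (2.44% and 4.56%) and of fragments of 30 nt and longer (6.18% and 18.4%) than other nuclear tRNAs in 6 of 6 libraries (exact sign-flip p = 0.0312, adjusted p = 0.0455 for each). Its 5' share was higher in 2 of 6 libraries (exact sign-flip p = 0.312).

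**Figure D2:**
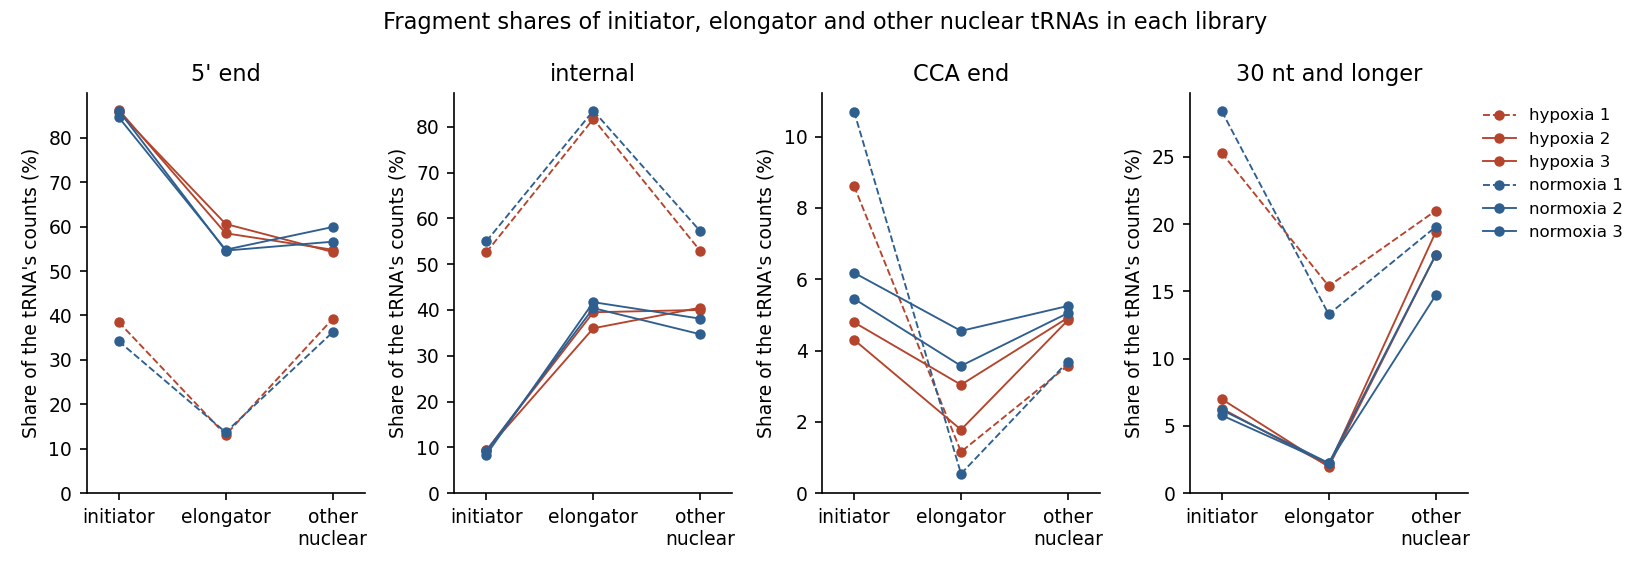
Share of each tRNA's counts (%) in 5' fragments, internal fragments, CCA-ended fragments and fragments of 30 nt and longer, for the initiator, the elongator and all other nuclear tRNAs, with 1 line per library. In each library the initiator has a higher 5' share than the elongator, and the elongator a higher internal share than the initiator. This also holds in both libraries numbered 1 (dashed), where all 5' shares are lower.

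Initiator 5' fragments came in 3 length groups. Fragments of 15 to 22 nt, which end in or near the D loop, stood at 3604, 10316 and 10208 CPM in hypoxia, against 4326, 10985 and 10901 CPM in normoxia. Those of 29 to 36 nt, which end in the anticodon arm, stood at 311.4, 609.3 and 522.2 CPM in hypoxia, against 426.3, 519.8 and 608.1 CPM in normoxia. A 5' fragment of exactly 45 nt, ending in the variable loop, stood at 581.8, 55 and 32.1 CPM in hypoxia, against 728.6, 71.7 and 52.8 CPM in normoxia. The short group and the 45 nt fragment were lower in hypoxia within all 3 pairs, and the middle group in pairs 1 and 3 only. All 3 overlapped between the groups. Deposited sequences end at 45 nt, so a longer 5' fragment would not be seen.

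The elongator lacked most of the longer 5' fragments. Its 5' fragments of 15 to 22 nt had 1340, 2049 and 1970 CPM in hypoxia and 1442, 2097 and 2111 CPM in normoxia, which is 99.4% to 99.94% of its 5' counts. Those of 29 to 36 nt numbered only 2, 3 and 6 counts in hypoxia and 1, 0 and 0 counts in normoxia. For the initiator the same length range took 4.48% to 7.61% of the 5' counts.

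Among the 3 elongator 5' forms, CC was the most abundant in every library. It made 67.6%, 64.4% and 60.9% of elongator 5' counts in hypoxia and 67.2%, 58.8% and 57.9% in normoxia. The CG form, which matches the assembled elongator, made 21.8%, 22.9% and 25.9% in hypoxia and 22.8%, 28.5% and 30.1% in normoxia. The TC form made 10.6%, 12.7% and 13.2% in hypoxia and 10%, 12.7% and 12% in normoxia. Groups overlapped for each form, and two-sided exact permutation tests gave p = 0.4 for CC, 0.3 for CG and 0.6 for TC (n = 3 each). The CG share was lower in hypoxia within every pair.

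The 3' ends of fragments fell at a few places along each tRNA. The initiator peaked at position 18, with 3095, 8440 and 8389 CPM in hypoxia and 3579, 9163 and 8967 CPM in normoxia. Position 19 was the matching peak of the elongator, with 1330, 2020 and 1880 CPM in hypoxia and 1463, 2063 and 1890 CPM in normoxia. Ends at the base just before A58 were most frequent in the libraries numbered 1, where they were the highest peak of the elongator, with 3036 CPM in hypoxia library 1 and 3419 CPM in normoxia library 1. Ends there took 18.8%, 0.812% and 0.757% of initiator counts in hypoxia and 21.7%, 0.636% and 0.774% in normoxia. For the elongator they took 29.6%, 4.71% and 6.77% in hypoxia and 32.4%, 5.6% and 4.89% in normoxia. The cause of these ends was not tested.

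Fragments that hold A58, counting those that begin or end at it, were also most frequent in the libraries numbered 1. They made 17%, 3.14% and 3.19% of initiator counts in hypoxia and 16%, 2.48% and 2.77% in normoxia, higher in hypoxia within all 3 pairs with overlapping groups. Of the elongator counts they made 34.5%, 2.25% and 3.3% in hypoxia and 30.7%, 2.72% and 3.28% in normoxia. None of these position shares separated hypoxia from normoxia (two-sided exact permutation p = 0.5 to 0.9, n = 3 each, adjusted p = 1). The positions were chosen after the profiles had been seen.

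The fragments that show the A58 peak best are an internal initiator fragment of 37 nt, which starts in the D loop and spans the anticodon, and an internal elongator fragment of 15 nt at positions 43 to 57. Both stop at the base before A58, and the initiator one is shown with the anticodon in capitals.
Initiator positions 20 to 56: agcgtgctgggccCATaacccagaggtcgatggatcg
The initiator fragment had 474.0, 23.4 and 17.5 CPM in hypoxia, against 828.3, 24.8 and 28.8 CPM in normoxia. The elongator fragment had 1044, 28.1 and 38.5 CPM in hypoxia, against 1318, 41.9 and 27 CPM in normoxia. Both were many times higher in the libraries numbered 1 than in the others, and the groups overlapped.

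**Figure D3:**
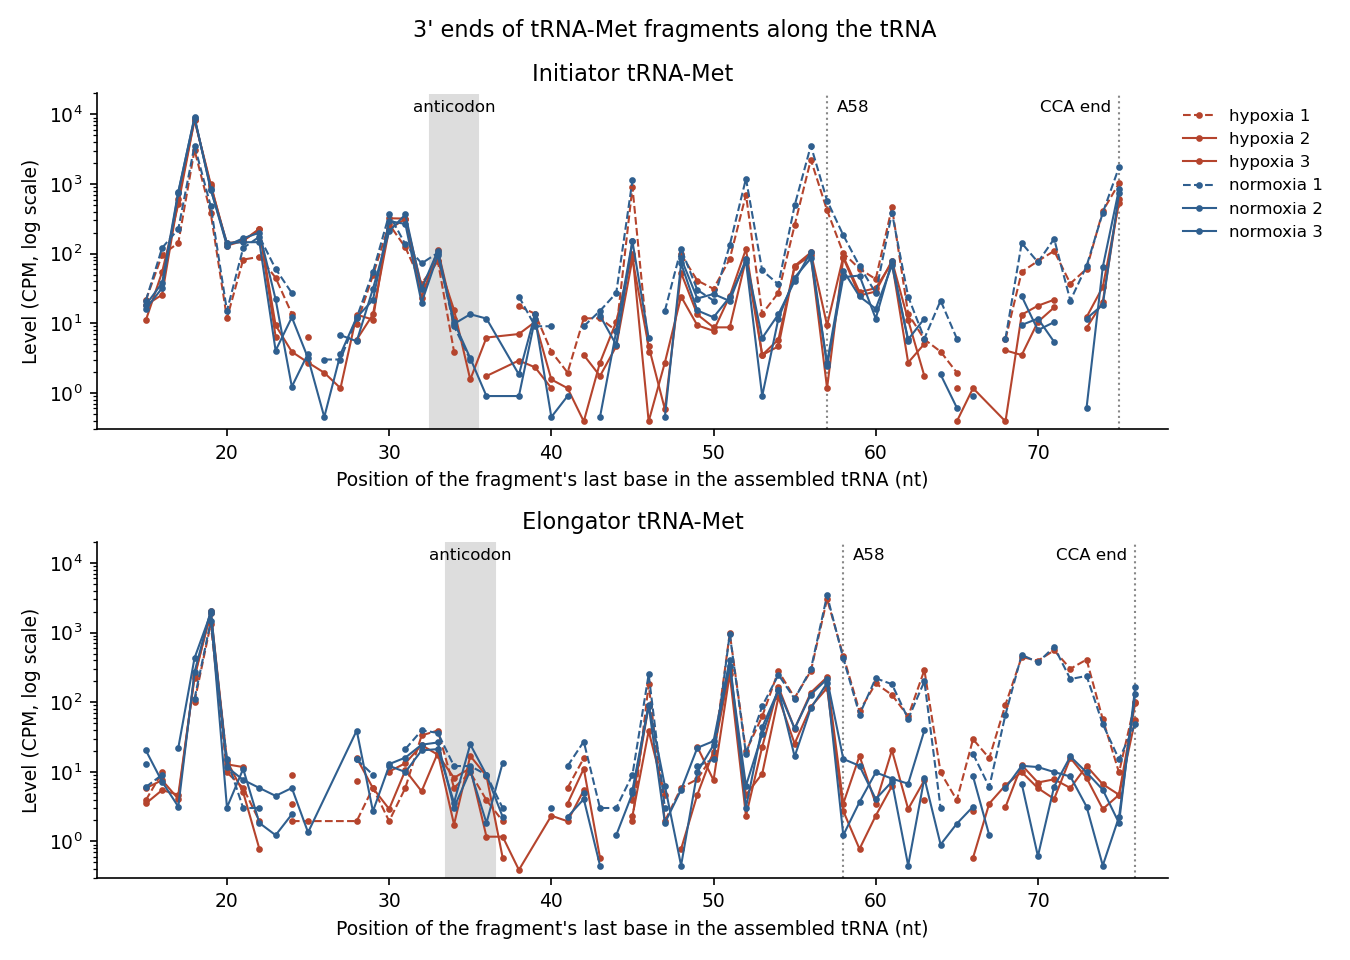
Level (CPM, log scale) of fragments by the position of their last base along the assembled initiator (top) and elongator (bottom), with 1 line per library, dashed for the libraries numbered 1, and values of 0 left out. Every library has a peak in the D loop (position 18 in the initiator, 19 in the elongator), and in the libraries numbered 1 the elongator is highest at position 57, just before A58.

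The 3' ends of the tRNAs were recovered mainly with a complete tail from the initiator. Only 6 initiator sequences ended in the full CCA, of 15 to 20 nt, and 2 of them reached back to A58. The 12 elongator sequences of this class had 15 to 17 nt and none held A58. Other nuclear tRNAs gave CCA fragments of up to 45 nt, and those over 20 nt held 4.56% of their CCA counts. Of all initiator fragments that ended at the last encoded base or in the tail, 66.9%, 95.5% and 92.2% had the full CCA in hypoxia and 78.6%, 96% and 92.9% in normoxia. The share was lower in hypoxia within all 3 pairs, with overlapping groups (two-sided exact permutation p = 0.6, n = 3 each). Initiator fragments that stopped before the tail had 19 counts in hypoxia library 1 and 7 in normoxia library 1. In the other 4 libraries they had 0 counts, which allows a share of up to 0.00913% to 0.014% of initiator counts.

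Elongator fragments without a tail were frequent only in the libraries numbered 1. Those of the deposited class had 411.3, 12.1 and 8.17 CPM in hypoxia, against 241.8, 3.16 and 9.82 CPM in normoxia (edgeR log2 fold change 0.82, SE 1.73, adjusted p = 0.999). They were long, 19 to 43 nt, where the elongator fragments with a full tail had at most 17 nt. In hypoxia library 1 only 19.9% of the elongator 3' terminal ends had the full tail, and in normoxia library 1 15.8%, against 79.2% to 95.9% in the other libraries. The 3' forms also differed: the form of the assembled elongator made 180, 12 and 12 counts without a tail in hypoxia and 64, 7 and 6 in normoxia. With a full tail another form led, with 37, 157 and 61 counts in hypoxia and 12, 182 and 180 counts in normoxia.

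Single fragments were then tested together with all other tsRNAs. The expression filter kept 92 initiator and 75 elongator fragments among 6452 tsRNAs, and these held 94.9% of initiator and 81% of elongator counts. Most members were rare: 108 initiator and 78 elongator sequences were seen in all 6 libraries, and 98 and 255 had a single count in total. With the group alone edgeR called 0 initiator and 0 elongator fragments, and 0% of all tsRNAs. DESeq2 and limma voom called 0 as well. At an unadjusted p under 0.05 there were 2 initiator fragments (2.17%) and 1 elongator fragment (1.33%) lower in hypoxia, against 0.418% of all tsRNAs. At that p 0 of either were higher, against 0.279% of all. With the replicate block 0.155% of tsRNAs were called, 0 of them from tRNA-Met. At an unadjusted p under 0.05 the block gave 6 initiator (6.52%) and 3 elongator fragments (4%) lower, against 2.98% of all. It gave 2 (2.17%) and 1 (1.33%) higher, against 3.41% of all. Without both libraries numbered 1 the share called was 0.0154%, again with 0 members. At an unadjusted p under 0.05 that edgeR fit gave 10 of 72 elongator fragments (13.9%) lower and 1 higher. For the initiator it gave 4 of 81 lower and 3 higher. The share of all tsRNAs at that p was not taken for this fit, so these counts have no background.

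More members were lower than higher in hypoxia. In all 3 pairs 28 of the 92 initiator fragments (30.4%) and 21 of the 75 elongator fragments (28%) were lower in CPM, against 13.4% of all tsRNAs. Only 2 initiator (2.17%) and 2 elongator fragments (2.67%) were higher in all 3 pairs, against 15% of all tsRNAs. By class, the lower ones were 7 of 18 initiator 5' fragments, 16 of 68 internal and 5 of 6 CCA fragments, and 3 of 8 elongator 5' fragments, 18 of 61 internal and 0 of 6 CCA fragments. The median log2 fold change was -0.33 for the initiator and -0.18 for the elongator, against 0.02 for all tsRNAs. With the replicate block the medians were -0.15 and -0.16, and without both libraries numbered 1 they were -0.15 for the initiator and -0.41 for the elongator. Fragments of the same tRNA overlap in sequence and share a source, so that they are not independent counts of the same change. Groups did not overlap for 5 initiator (5.43%) and 3 elongator fragments (4%) lower in hypoxia, against 2.51% of all tsRNAs, and for 0 and 0 higher, against 2.32% of all. The elongator ones of positions 14 to 28 and 30 to 51 lay below the expression filter's level in every hypoxia library, so they were kept through normoxia alone. Their separation is partly set by that selection, so the elongator count gives no support for a change.

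The initiator fragments with the lowest unadjusted p came from the anticodon arm and from the acceptor end. They are shown here with the anticodon in capitals.
Initiator positions 31 to 45: ccCATaacccagagg
Initiator positions 60 to 74: ccatcctctgctacc
The fragment of positions 31 to 45, the 3' part of the anticodon arm, had 7.84, 12.1 and 4.67 CPM in hypoxia, against 15.1, 51.8 and 31.9 CPM in normoxia. Every hypoxia library was below every normoxia library, though normoxia library 1 held only 5 counts of this fragment. Its edgeR log2 fold change was -2.11 (SE 0.84, unadjusted p = 0.0358, adjusted p = 1). With the replicate block it was -2.09 (SE 0.65, unadjusted p = 0.00335, adjusted p = 0.361). The fragment of positions 60 to 74, which ends in an incomplete tail, had 7.84, 6.24 and 5.83 CPM in hypoxia, against 21.2, 8.12 and 46.6 CPM in normoxia. The groups did not overlap, but narrowly. Hypoxia library 1 held only 4 counts, at 7.84 CPM against 8.12 CPM in normoxia library 2. The edgeR log2 fold change was -2.01 (SE 0.87, unadjusted p = 0.0491, adjusted p = 1). The third initiator fragment of this kind, positions 33 to 52, had 15.7, 5.85 and 2.92 CPM in hypoxia and 54.4, 9.47 and 13.5 CPM in normoxia, with overlapping groups (edgeR log2 fold change -1.60, SE 0.86, adjusted p = 1).

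Of the higher initiator fragments with the smallest p, 2 ran through A58. The one at positions 34 to 58 had 15.7, 44.9 and 11.1 CPM in hypoxia, against 24.2, 3.61 and 2.45 CPM in normoxia. Pair 1 ran lower and pairs 2 and 3 ran higher, so that the groups overlapped (edgeR log2 fold change 1.74, SE 1.01, adjusted p = 1). The fragment 1 base shorter at its 5' end, positions 35 to 58, had 15.7, 12.5 and 22.8 CPM in hypoxia and 24.2, 1.35 and 7.98 CPM in normoxia. It followed the same order within the pairs (edgeR log2 fold change 0.96, SE 0.95, adjusted p = 1). The fragment of positions 17 to 31, from the D loop into the anticodon arm, had 11.8, 8.97 and 17.5 CPM in hypoxia and 12.1, 5.86 and 6.14 CPM in normoxia, with overlapping groups (edgeR log2 fold change 0.80, SE 0.74, adjusted p = 1).

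None of the abundant initiator fragments passed the test. The 18 nt 5' fragment had 2860, 8275 and 8252 CPM in hypoxia, against 3265, 8987 and 8803 CPM in normoxia (edgeR log2 fold change -0.15, SE 0.80, adjusted p = 1). It was lower within all 3 pairs and its groups overlapped. The 17 nt 5' fragment had 141.0, 597.2 and 507.0 CPM in hypoxia, against 217.7, 743.5 and 764.5 CPM in normoxia (edgeR log2 fold change -0.50, SE 0.87, adjusted p = 1). The 19 nt one was higher in hypoxia within pairs 2 and 3 only. The main CCA fragment, positions 58 to 75, had 376.1, 80 and 79.9 CPM in hypoxia, against 631.8, 138.9 and 97.6 CPM in normoxia, lower within all 3 pairs with overlapping groups (edgeR log2 fold change -0.65, SE 0.76, adjusted p = 1).

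Among elongator fragments, the 5' forms differed little between the groups. The CC form of 19 nt had 856.0, 1238 and 1119 CPM in hypoxia, against 928.1, 1143 and 1098 CPM in normoxia (edgeR log2 fold change 0.01, SE 0.55, adjusted p = 1). Its groups overlapped. The fragments with the lowest unadjusted p among those of at least 10 CPM either began in the anticodon arm and ran past it, or ended in the tail. The fragment of positions 32 to 51 had 23.5, 3.9 and 8.75 CPM in hypoxia, against 39.3, 21.6 and 19 CPM in normoxia. It was lower within all 3 pairs and the groups overlapped (edgeR log2 fold change -1.26, SE 0.74, adjusted p = 1). The tail fragment of positions 62 to 76 had 5.88, 6.63 and 7 CPM in hypoxia, against 3.02, 32.5 and 14.1 CPM in normoxia. It was lower in pairs 2 and 3 only (edgeR log2 fold change -1.51, SE 0.97, adjusted p = 1). A fragment of positions 39 to 53 that differs from the assembled elongator at 1 base had 11.8, 3.9 and 7.58 CPM in hypoxia, against 18.1, 12.6 and 19.6 CPM in normoxia, without overlap (edgeR log2 fold change -1.23, SE 0.73, adjusted p = 1). That separation was narrow, with only 6 counts in hypoxia library 1. A rarer fragment of positions 14 to 28, chosen after its value was seen, was the only elongator fragment lower at an unadjusted p under 0.05. It had 1.96, 1.95 and 0.583 CPM in hypoxia, against 9.07, 12.2 and 7.36 CPM in normoxia (edgeR log2 fold change -2.68, SE 0.95, unadjusted p = 0.0228, adjusted p = 1). Every hypoxia library was below every normoxia library. The fragment lay below the filter's level in every hypoxia library and was kept through normoxia alone. Its p and the separation of its groups are therefore partly set by that selection and give no support for a change.

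The other named elongator fragments overlapped between the groups. The CG form of 19 nt had 225.3, 345.2 and 351.2 CPM in hypoxia, against 257.0, 412.5 and 353.4 CPM in normoxia (edgeR log2 fold change -0.17, SE 0.60, adjusted p = 1). The TC form of 19 nt had an edgeR log2 fold change of 0.03 (SE 0.66, adjusted p = 1). The main fragment with a full tail, positions 60 to 76, had 47, 50.3 and 26.8 CPM in hypoxia, against 33.3, 64 and 88.4 CPM in normoxia, higher in pair 1 and lower in pairs 2 and 3 (edgeR log2 fold change -0.73, SE 0.71, adjusted p = 1). The main fragment without a tail, positions 35 to 73, had 66.6, 2.34 and 3.5 CPM in hypoxia, against 30.2, 0.902 and 1.84 CPM in normoxia. It was higher in hypoxia within all 3 pairs but did not pass the expression filter, so it was not fitted. The most abundant internal fragment that begins inside the anticodon, positions 35 to 51, had 325.2, 88.5 and 61.8 CPM in hypoxia, against 208.6, 149.7 and 110.4 CPM in normoxia (edgeR log2 fold change -0.13, SE 0.62, adjusted p = 1). It was higher in pair 1 and lower in pairs 2 and 3. The fragment 3 bases longer, positions 35 to 54, had 49, 10.9 and 40.8 CPM in hypoxia, against 27.2, 23.9 and 5.52 CPM in normoxia (edgeR log2 fold change 0.84, SE 0.82, adjusted p = 1). It was higher in pairs 1 and 3 only. Those of positions 40 to 55 and 39 to 54 had log2 fold changes of 1.04 (SE 1.10) and 0.60 (SE 0.77) in edgeR, each with an adjusted p of 1.

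**Figure D4:**
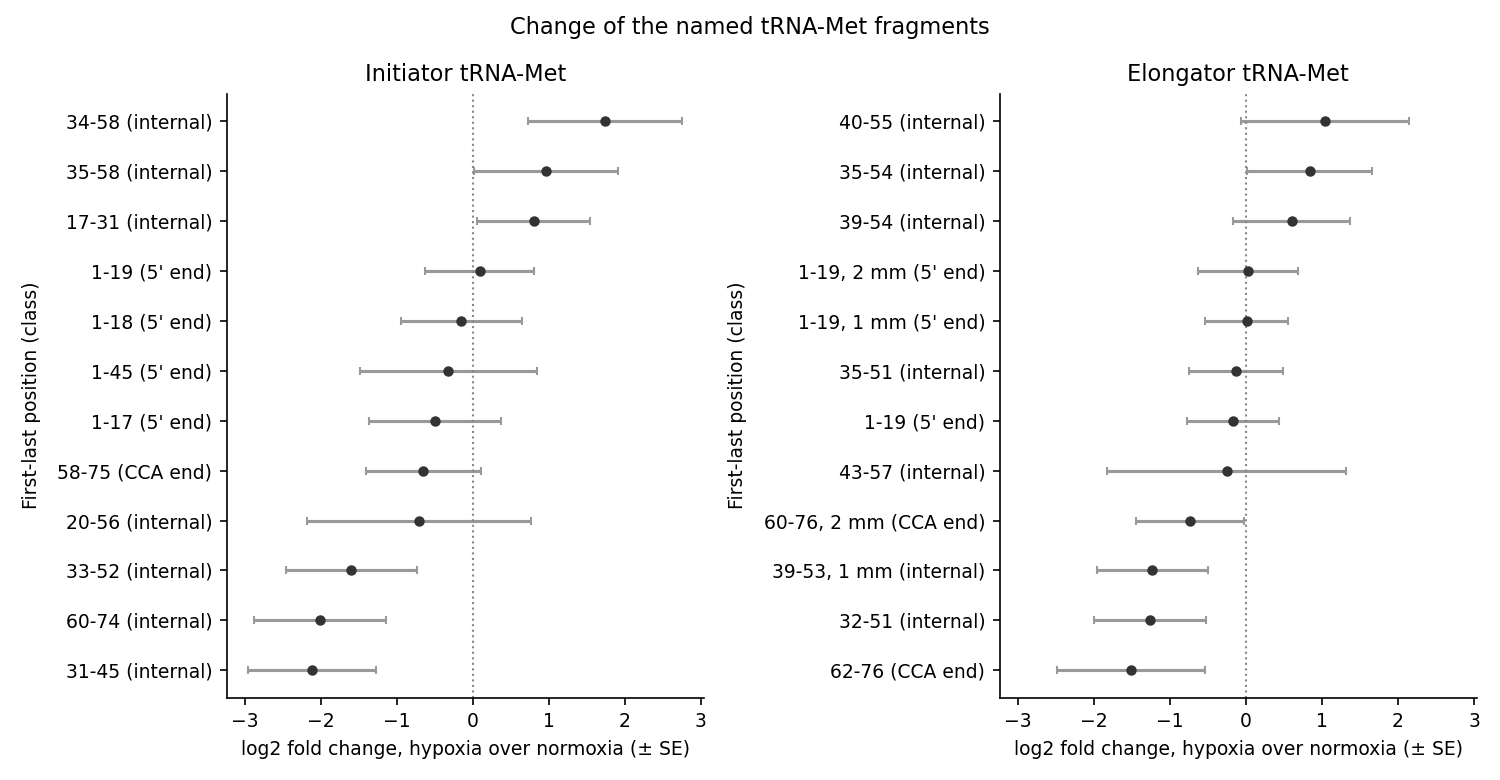
Log2 fold change, hypoxia over normoxia, of the named initiator (left) and elongator (right) fragments in the edgeR fit with the group alone, with bars of 1 SE; labels give the first and last position, mismatches (mm) to the assembled tRNA and the class. The 18 and 19 nt 5' fragments of the initiator and the elongator 5' forms lie between -0.17 and 0.09, the initiator fragment of positions 31 to 45 is lowest at -2.11, and each adjusted p is 1.

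The third methionine tRNA of the cell, that of the mitochondrion, was set beside them. Its 412 fragments summed to 3238, 1363 and 1407 CPM in hypoxia, against 3232, 1452 and 1401 CPM in normoxia (means 2003 ± 1070 CPM in hypoxia and 2028 ± 1042 CPM in normoxia, SD, n = 3 each; two-sided exact permutation p = 0.8). The elongator had a higher 5' share (42.6% and 19.5%) and a lower share of fragments of 30 nt and longer (6.18% and 46.1%) than mitochondrial tRNA-Met in 6 of 6 libraries (exact sign-flip p = 0.0312, adjusted p = 0.0455 for each).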

How the data were processed

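Small RNA of primary mouse pulmonary artery smooth muscle cells was sequenced after the enzyme treatment of the Pandora-seq protocol, per the labels' protocols. The authors deposited raw counts per distinct sequence, with the tRNAs and the fragment class each sequence was assigned to. The submitters' processing notes name mm10. How reads were aligned, annotated and filtered, and against which tRNA reference, is not given in the sources used here. Fragments that end in C or CC of the tail are in the deposited internal class. The sample titles gave each library's group and number, and the series describes the replicates as biological.

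The members and lists were chosen with earlier results of these data known. CPM divides by all counts of a library (1e+06). Assembly of each tRNA started from a long 5' fragment and was extended by the most abundant fragments overlapping by at least 12 nt. For the elongator the start was a CG-form fragment of 42 nt with only 2 counts. The other sequences were placed without gaps, with at most 20% mismatches. The elongator's sequence is not reported here. 3 sequences shared with tRNA-Ile-TAT are outside the rule. Counts of single tsRNAs, of each tRNA set and of each set and class were tested over the whole table by edgeR's quasi-likelihood test (version 4.0.16, R 4.3.3) after filterByExpr and trimmed-mean normalization, with Benjamini-Hochberg adjustment and a threshold of 0.05. DESeq2 1.42.0, limma 3.58.1 (voom), other scalings, other filters and left-out libraries were the alternatives, and the scripts were tested on simulated data. The simulated counts varied less between libraries than these data, so they do not show what changes the fits could detect here. A tRNA set is the set of tRNAs assigned to a sequence, so each sequence counts once. Levels and shares were compared by two-sided exact tests (SciPy 1.17.1, Python 3.11.15). Figures were drawn with matplotlib 3.10.9. Sequence annotation of genes is from RefSeq.

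The named fragments are, per tRNA, the 5 most abundant, the most abundant of each class and, among those of at least 10 CPM, the 3 with the smallest unadjusted p in each direction. After subtracting group means, libraries of the same number correlated at 0.8, 0.55 and 0.47. Libraries of different numbers were not correlated, and both libraries numbered 1 stood apart from the rest. These values therefore cannot tell whether libraries 2 and 3 are paired by number, and the sample titles state no pairing. Taking the numbers as pairs is an assumption. Fits with the replicate block are given where they move a count. Shares and 0 counts rest on reads without molecular identifiers, so limits from 3 counts cover counting error only.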

Additional observations from a re-analysis of the deposited data

How the results depend on the processing

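The 0 calls among tRNA-Met fragments, classes and sums held under every scaling, filter and tool tried. The number of tsRNAs called over the whole table was 10 with the replicate block and 12 with the block and DESeq2 size factors, against 0 with the group alone, and the block changed no call for tRNA-Met. DESeq2 size factors moved the median log2 fold change of the tRNA sets to 0.16, against 0.06. They turned the elongator sum to 0.07, as did the DESeq2 Wald test (0.07), and to 0.04 with the replicate block. The CC form turned to -0.02 with DESeq2 size factors, -0.02 in the DESeq2 Wald test and -0.03 with the block and DESeq2 size factors. The 19 nt initiator 5' fragment turned to -0.02 in limma voom, -0.01 with the replicate block and -0.04 with the block and DESeq2 size factors. Elongator positions 35-51 turned to 0.02 with plain library size. With only filtered sequences the elongator share of 25 to 29 nt turned to 0.101 points, the initiator 29 to 36 nt share of 5' ends to 0.00308 and the elongator share holding A58 to -0.0313. With trimmed-mean scaled CPM, 26 initiator (28.3%) and 21 elongator fragments (28%) were lower in all 3 pairs, against 13.1% of all tsRNAs. In that scaling 4 (4.35%) and 2 (2.67%) were higher in all 3 pairs, against 15.2% of all. Without overlap 3 (3.26%) and 4 (5.33%) were lower, against 2.26% of all, and 1 (1.09%) and 0 were higher, against 2.71%. The cause of these turns was not tested. Counting depth limits the rare fragments most: the filter removed 532 initiator and 922 elongator sequences.

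With each library left out in turn, and with both libraries numbered 1 left out, no tRNA-Met fragment, class or tRNA was called, and the ranges were as follows for the results that turned in direction, each as hypoxia minus normoxia. The elongator level ranged over -2703 to 1827 CPM (above 0 without normoxia library 1 and without hypoxia library 2 or 3) and the log2 ratio of initiator to elongator over -0.48 to 0.48. Shares of the initiator ranged, in percentage points, over -8.12 to 7.19 for 15 to 24 nt, -0.367 to 1.25 for 25 to 29 nt, -0.043 to 0.113 for 3' end without CCA, -6.83 to 6.87 for 30 nt and longer, -15.2 to 17.8 for 5' end, -2.88 to 0.0901 for CCA end and -14.8 to 15 for internal. Shares of the elongator ranged, in percentage points, over -5.27 to 6.18 for 15 to 24 nt, -2.26 to 1.04 for 25 to 29 nt, -0.577 to 1.37 for 3' end without CCA, -3.91 to 4.23 for 30 nt and longer, -10.6 to 18.5 for 5' end and -17.5 to 11.3 for internal. Position shares of the initiator, also in percentage points, ranged over -5.27 to 5.64 for 5' ends of 15 to 22 nt, share of 5' ends, -0.698 to 0.865 for 5' ends of 29 to 36 nt, share of 5' ends, -9.63 to 4.66 for full CCA share of 3' terminal ends, -6.93 to 6.09 for share ending just before A58 and -3.92 to 5.14 for share holding A58. Position shares of the elongator, also in percentage points, ranged over -33.4 to 12.3 for full CCA share of 3' terminal ends, -8.55 to 8.44 for share ending just before A58 and -9.47 to 10.4 for share holding A58. Log2 fold changes in edgeR ranged over -1.99 to 3.50 for elongator 3' end without CCA sums, -0.41 to 0.34 for elongator 5' end sums, -0.90 to 0.50 for elongator internal sums, -0.51 to 0.37 for initiator 5' end sums, -0.87 to 0.60 for initiator internal sums, -0.34 to 0.12 for all elongator fragments and -0.36 to 0.10 for all initiator fragments. For single fragments, by first and last position, they ranged over -0.83 to 0.01 for elongator 35-51, -1.38 to 0.14 for initiator 58-75, -3.11 to 2.80 for elongator 43-57, -0.58 to 0.30 for initiator 1-18, -0.27 to 0.53 for initiator 1-19, -2.12 to 1.26 for initiator 1-45, -3.17 to 2.06 for initiator 20-56, -0.25 to 0.31 for the CC form, -0.49 to 0.16 for the CG form and -0.34 to 0.38 for the TC form. The number of class sums called ranged over 0 to 13 and that of tsRNAs over 0 to 1, the upper values without both libraries numbered 1, with 0 members among them.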

Other observations

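A sequence of 15 nt from the T arm is assigned to the elongator and to tRNA-Ile-TAT together and so was not a member. It had 7.84, 4.68 and 14 CPM in hypoxia, against 9.07, 39.2 and 58.3 CPM in normoxia, lower within all 3 pairs with overlapping groups. Its edgeR log2 fold change was -2.14 (unadjusted p = 0.0562, adjusted p = 1), and -2.09 with the replicate block (unadjusted p = 0.00384, adjusted p = 0.385). The 2 other sequences with this assignment had 1 count each.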
